A study of Bos taurus with 12 samples.

Results

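The members described here are the cattle microRNAs whose miRBase numbers lie in 4 late blocks, miR-2286 to miR-2484, miR-2880 to miR-2903, miR-6517 to miR-6536 and miR-11970 to miR-12065. They were taken from the names in the deposited table alone, and 167 of its 1981 distinct names qualified. The table comes from small RNA sequencing of the blood of Chinese Holstein cows, with 6 heat stressed and 6 heat resistant cows. The study sorted 12 cows into these classes by rectal temperature and lost milk yield, combined through principal components. The labels name no treatment, age or batch, and no fraction of the blood. Libraries are called by their group and the number in their title, and each is taken as 1 cow.

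A microRNA is cut from a folded hairpin transcript, first in the nucleus and then in the cytoplasm, and either arm of the hairpin can give a mature strand that guides an Argonaute protein to messenger RNAs. Many hairpins lie inside the introns of protein genes and are made from the same transcript. miRBase numbers follow the order of registration, so a number block gathers entries found at about the same time and is not a family. Low-numbered entries are mostly old and shared by many animals, while later blocks hold many hairpins first found by deep sequencing of 1 species. For most of the members no function is established. Among the exceptions, miR-2400 and miR-2425 have been studied in bovine fat and muscle precursor cells and miR-2478 in goat mammary cells. Sequences of the members are not printed here.

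The 167 names stand for 131 hairpins. Block miR-2286 to miR-2484 holds 89 names, block miR-2880 to miR-2903 holds 3, block miR-6517 to miR-6536 holds 17 and block miR-11970 to miR-12065 holds 58. Of all members, 138 are listed mature forms and 29 are products of a hairpin arm with no listed mature form, which the table marks by a suffix p5 or p3. In 20 names the suffix marks a single base that differs from the listed sequence, and in 67 others it marks a shifted end. These suffixes are left out of the names below. Listed mature forms had a median level of 1.18 counts per 1000000 (CPM) and unlisted hairpin products one of 0.542 CPM. Names that mark a changed base had a median of 0.427 CPM, exact names 1.04 CPM and names with a shifted end 1.14 CPM. Among names of other species in the table, 1 number of the 4 blocks also occurs, in the human name miR-6529-3p, with 2.18 CPM on average. Members were chosen by their cattle prefix, so this cannot show whether they are restricted to cattle.

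The libraries held 6405040 to 9728457 counts in heat stressed cows and 3992952 to 9813801 counts in heat resistant cows. All members together held 0.261 ± 0.0220% of these counts in heat stressed cows and 0.264 ± 0.0398% in heat resistant cows (SD, n = 6 each). The miR-2284 and miR-2285 names of ruminants, 193 in number, held 0.669 ± 0.0427% in heat stressed cows, against 0.535 ± 0.0936% in heat resistant cows (SD, n = 6 each). Libraries that stood apart in hepatocyte or red cell markers were heat resistant 1, 2 and 4. The hepatocyte miRNAs miR-122 and miR-885 made up 0.946% to 4.21% of a heat stressed library, against 13.7% and 15.7% in heat resistant libraries 1 and 2 and 1.87% to 2.38% in the other heat resistant ones. The red cell miRNAs miR-144, miR-451 and miR-486 made up 2.48% to 7.69% of a heat stressed library, against 9.27% in heat resistant library 4 and 1.81% to 2.82% in the other heat resistant ones. Lymphocyte miRNAs (miR-150, miR-342) made up 0.554% to 1.19% in heat stressed and 0.389% to 0.556% in heat resistant libraries. Platelet miRNAs (miR-126, miR-223, also myeloid) made up 1.07% to 1.86% in heat stressed and 1.07% to 1.61% in heat resistant libraries. Muscle miRNAs (miR-1, miR-133a, miR-206) made up 0.0113% to 0.0792% in heat stressed libraries, highest in library 3. They made up 0.0725% in heat resistant library 3 and 0.00825% to 0.0120% in the other heat resistant ones. Levels in blood cannot tell fewer cells of a type from less of an RNA per cell.

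Abundance was carried by few members. Levels below are CPM scaled by TMM factors, and the mean over all 12 libraries exceeded 10 CPM in 27 members, lay between 1 and 10 CPM in 56 and was 1 CPM or less in 84. The median member stood at 0.975 CPM, close to the 0.973 CPM of the miR-2284 and miR-2285 names, whereas the 394 cattle names outside both sets had a median of 30.7 CPM. The blocks differed in how their counts were spread. Block miR-6517 to miR-6536 held the largest share of counts of the 4, and 83.2% of its counts belonged to 1 member, miR-6529a. In block miR-2286 to miR-2484 the leading member took 15.1% and in block miR-11970 to miR-12065 it took 15.9%. Median levels were 1.19 CPM in block miR-2286 to miR-2484, 2.37 CPM in block miR-6517 to miR-6536 and 0.774 CPM in block miR-11970 to miR-12065. The 3 names of block miR-2880 to miR-2903 stood at 18.3, 18.1 and 0.385 CPM.

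**Figure D1:**
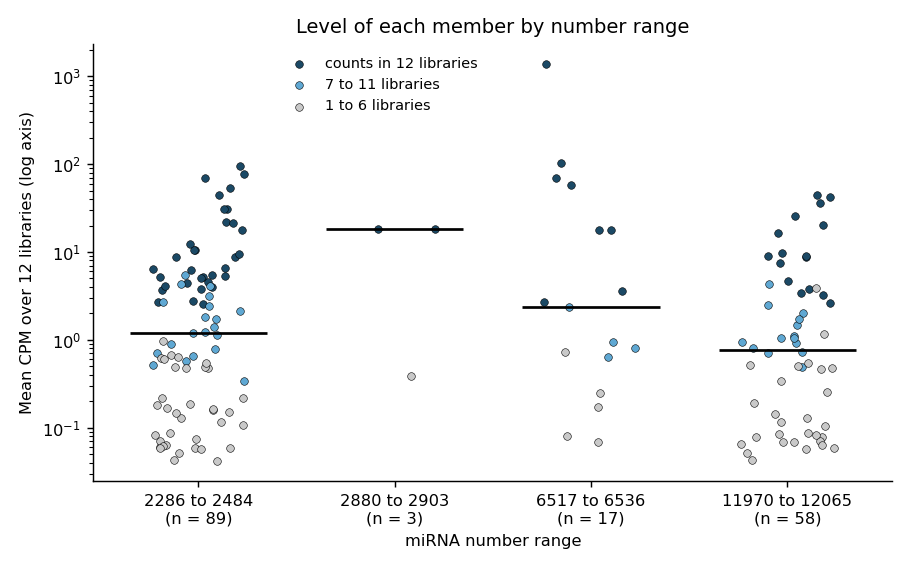
Mean level of each of the 167 members over 12 libraries, in CPM on a log axis, by number block; colour gives the number of libraries with counts and the bar is the median of the block. miR-6529a, at 1384.5 CPM, stands above every other member, and members without counts in all libraries lie mostly under 1 CPM.

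Detection varied between the blocks. Counts were present in all 12 libraries for 59 members, or 35.3%, beside 35.0% of all names in the table, 44.6% of the miR-2284 and miR-2285 names and 73.4% of the other cattle names. By block the share was 37.1% for miR-2286 to miR-2484, 47.1% for miR-6517 to miR-6536 and 27.6% for miR-11970 to miR-12065, and it was 2 of 3 names for miR-2880 to miR-2903. A further 38 members had counts in 7 to 11 libraries, 40 in 2 to 6, and 30 in a single library. Counts were found for 105 ± 7.31 members per heat stressed library, against 100 ± 11.0 per heat resistant library (SD, n = 6 each). Over all names in the table the numbers were 1139 ± 75.1 per heat stressed library and 1070 ± 119 per heat resistant library, so the direction was shared with the whole table. The fewest, 84, were in heat resistant library 3, which was also the shallowest. Counts above 0 but under 5 are nearly missing from the table, with 99.2% of nonzero member values at 5 or more; a listed 0 may therefore hide a few reads.

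Presence in 1 group alone was thinly spread. Members with counts only in heat stressed libraries numbered 18, in at most 4 libraries each, and those only in heat resistant libraries numbered 19, in at most 2. Of the 167 members, 30 had counts in a single library and so in 1 group by necessity, as had 527 of all 1981 names. The share of all names present in 1 group alone was not computed, so these numbers have no background beside them. The p3 product of mir-6520 and that of mir-11978, named after their values were seen, had counts in 4 heat stressed libraries and in 0 heat resistant libraries. They averaged 0.497 and 0.676 CPM over all heat stressed libraries, those listed at 0 included, a level of a few counts per library. A listed 0 may hide counts under 5. Presence in block miR-6517 to miR-6536 was counted as 13.2 ± 1.94 of 17 names per heat stressed library, against 11.0 ± 1.26 per heat resistant library (SD, n = 6 each), in the same direction as over all names. With 10 or more counts as the limit, the difference of heat stressed minus heat resistant cows was 1.0 name, against 2.17 names when any count was enough.

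The genes around the hairpins were read from RefSeq (assembly ARS-UCD2.0), in which 127 of 131 hairpins were matched by name. No source used here names the authors' build, so no positions are printed, and the gene table carries no strand. In it 102 hairpins lay inside a protein-coding gene and 5 more inside a long noncoding RNA gene only. The protein-coding location held for 54 of 67 hairpins in block miR-2286 to miR-2484, 1 of 2 in block miR-2880 to miR-2903, 13 of 13 in block miR-6517 to miR-6536 and 34 of 45 in block miR-11970 to miR-12065. The more abundant product of a hairpin had a median of 1.18 CPM for hairpins inside a protein-coding gene and of 3.89 CPM for the other hairpins matched, a description with no test. Of the 127 hairpins, 18 had another miRNA gene as their next neighbour. The hairpins of miR-2450a and miR-2450c both lay inside HTT, the huntingtin gene, and no other pair of hairpins of different number or letter shared a gene. They averaged 2.67 and 0.885 CPM. The hairpin of miR-2475 neighboured the gene of miR-23b, that of mir-12059-p5 the gene of miR-144, and that of miR-2443 genes of the let-7 family. These members averaged 0.659, 0.0657 and 3.73 CPM. Neighbours were named after their values were seen.

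Among the members of block miR-6517 to miR-6536, miR-6529a held most of the counts and had close means in both groups. Its hairpin lies inside GSK3B, the gene of a kinase of glycogen metabolism and Wnt signalling. Heat stressed libraries had 1197 to 1623 CPM with a median of 1338 CPM, and heat resistant libraries 1086 to 1724 CPM with a median of 1404 CPM. The groups overlapped almost wholly (log2 fold change of heat stressed over heat resistant cows, 0.02 ± 0.13 SE; adjusted p by edgeR, 0.954).

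miR-6524 was the member with the smallest p. Its hairpin lies inside PDCD4, whose protein restrains the start of translation and which is a known target of miR-21. Heat stressed libraries had 85.6 to 180 CPM with a median of 147 CPM, and heat resistant libraries 50.9 to 103 CPM with a median of 66.1 CPM. All heat stressed libraries lay above the heat resistant median, and the overlap came from heat stressed library 2 at 85.6 CPM and heat resistant library 4 at 103 CPM. The log2 fold change was 0.99 ± 0.21 (SE), and edgeR's adjusted p over all 756 features tested was 0.0674, which missed the threshold of 0.05. The other product of this hairpin, mir-6524-p5, had a log2 fold change of 1.07 ± 0.87 (SE; adjusted p 0.508 by edgeR) at 3.24 ± 2.59 CPM in heat stressed cows, against 1.49 ± 1.25 CPM in heat resistant cows (SD, n = 6 each).

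Further abundant members of the block had close means in both groups. miR-6517, from a hairpin inside the dynein assembly gene DNAAF2, had 47.6 to 93.0 CPM in heat stressed libraries, against 49.3 to 91.8 CPM in heat resistant libraries (log2 fold change 0.05 ± 0.19 SE; adjusted p 0.931 by edgeR). miR-6523a, from a hairpin inside the autophagy gene EPG5, had 52.4 to 78.8 CPM in heat stressed libraries, against 46.3 to 73.0 CPM in heat resistant libraries (log2 fold change 0.00 ± 0.16 SE; adjusted p 0.997 by edgeR). The highest heat stressed value of miR-6523a was that of library 5, while the other 5 lay between 52.4 and 55.8 CPM. Over the 9 tested members of this block, the median coefficient of variation among libraries of a group was 25.1% for heat stressed cows, against 25.0% for heat resistant cows, beside 28.1% and 31.7% over all tested features.

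Block miR-11970 to miR-12065 gave the only tested member whose groups did not overlap, miR-11971, 1 of 75, beside 1.06% of all tested features. Its hairpin lies inside MEGF11, a gene of a cell adhesion protein known from the retina. Heat stressed libraries had 46.6 to 59.8 CPM with a median of 51.4 CPM, and heat resistant libraries 22.7 to 42.9 CPM with a median of 34.8 CPM. The log2 fold change was 0.62 ± 0.16 (SE; adjusted p 0.0692 by edgeR). The deposited name marks 1 base that differs from the listed sequence of this miRNA.

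miR-11986c, from a hairpin inside a long noncoding RNA gene, had 14.7 to 24.6 CPM in heat stressed libraries, with a median of 21.7 CPM, and 9.24 to 16.7 CPM in heat resistant libraries, with a median of 12.5 CPM. Its log2 fold change was 0.64 ± 0.20 (SE; adjusted p 0.0973 by edgeR). The related miR-11986b, named after its values were seen, comes from a hairpin inside the tight junction gene OCLN. It stood at 22.0 ± 4.56 CPM in heat stressed cows, against 18.8 ± 5.71 CPM in heat resistant cows (SD, n = 6 each; log2 fold change 0.23 ± 0.21 SE; adjusted p 0.576 by edgeR).

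miR-11982 pointed the other way. Its hairpin lies inside LYST, the lysosomal trafficking gene that is mutated in Chediak-Higashi syndrome. Heat stressed libraries had 26.9 to 37.8 CPM with a median of 30.6 CPM, and heat resistant libraries 28.6 to 99.7 CPM with a median of 54.5 CPM. Every heat stressed library lay below the heat resistant median, and heat resistant library 4 was the lowest of its group at 28.6 CPM (log2 fold change -0.85 ± 0.26 SE; adjusted p 0.0977 by edgeR). The spread differed too, with an SD of 4.48 CPM among heat stressed libraries, against 26.5 CPM among heat resistant libraries.

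miR-11973, from a hairpin inside the sodium, calcium and potassium exchanger gene SLC24A3, had 28.0 to 36.1 CPM in heat stressed libraries, against 19.2 to 58.9 CPM in heat resistant libraries (log2 fold change -0.42 ± 0.22 SE; adjusted p 0.285 by edgeR). The lowest heat resistant value was again that of library 4. miR-11987 had 8.27 to 26.7 CPM in heat stressed libraries, against 18.6 to 67.1 CPM in heat resistant libraries (log2 fold change -0.63 ± 0.33 SE; adjusted p 0.299 by edgeR). Its 67.1 CPM belonged to heat resistant library 6, and the next highest library of that group had 34.4 CPM. Without library 6 its log2 fold change was -0.33 ± 0.26 SE (adjusted p 0.496 by edgeR).

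In block miR-2286 to miR-2484 none of the 4 most abundant members passed the test. miR-2448-3p had 85.6 to 124 CPM in heat stressed libraries, against 67.0 to 113 CPM in heat resistant libraries (log2 fold change 0.29 ± 0.16 SE; adjusted p 0.310 by edgeR). miR-2387, from a hairpin inside the transcription factor gene GTF2IRD1, had 46.8 to 87.8 CPM in heat stressed libraries, against 61.1 to 97.5 CPM in heat resistant libraries (-0.25 ± 0.19 SE; adjusted p 0.453 by edgeR). miR-2403, from a hairpin inside the transporter gene SLC16A9, had 33.6 to 62.2 CPM in heat stressed libraries, against 38.6 to 90.4 CPM in heat resistant libraries (-0.10 ± 0.22 SE; adjusted p 0.846 by edgeR). miR-2419-5p, from a hairpin outside any listed gene, had 42.5 to 117 CPM in heat stressed libraries, against 42.4 to 119 CPM in heat resistant libraries (-0.42 ± 0.27 SE; adjusted p 0.395 by edgeR). It averaged 65.1 CPM in heat stressed cows, against 87.3 CPM in heat resistant cows, with 5 of 6 heat stressed libraries below the heat resistant median, and its log2 fold change was -0.65 ± 0.25 SE without heat stressed library 1 (adjusted p 0.228 by edgeR). That of miR-2448-3p was 0.18 without heat stressed library 6. In each of these 4 the ranges of the groups overlapped widely.

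The studied members named above differed in level, with means of 30.9 CPM for miR-2478, 6.41 CPM for miR-2400 and 0.975 CPM for miR-2425-5p. miR-2400, named after its values were seen, stood at 7.32 ± 2.25 CPM in heat stressed cows, against 5.51 ± 3.40 CPM in heat resistant cows (SD, n = 6 each), and miR-2425-5p had counts in 5 of 12 libraries.

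The members of the block with the smallest p among those with higher values were less abundant. miR-2336, from a hairpin outside any listed gene, had 8.74 to 15.5 CPM in heat stressed libraries, with a median of 12.2 CPM, and 2.54 to 9.02 CPM in heat resistant libraries, with a median of 5.09 CPM. The overlap was narrow, between heat stressed library 2 at 8.74 CPM and heat resistant library 6 at 9.02 CPM (log2 fold change 1.07 ± 0.28 SE; adjusted p 0.0721 by edgeR). miR-2308 had 2.91 to 8.50 CPM in heat stressed libraries, with a median of 6.93 CPM, against 0.788 to 4.77 CPM in heat resistant libraries, with a median of 1.75 CPM (1.37 ± 0.42 SE; adjusted p 0.0973 by edgeR). Without heat stressed library 2, at 2.91 CPM, all values of the heat stressed cows were 6.68 CPM or more. miR-2397-3p, from a hairpin inside the glutaredoxin gene GLRX3, had 4.56 to 11.1 CPM in heat stressed libraries, against 0 to 5.20 CPM in heat resistant libraries, where library 3 had no count (1.07 ± 0.48 SE; adjusted p 0.239 by edgeR).

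Of the 29 tested members of the block with lower values, miR-2431-3p, miR-2478, miR-2474 and miR-2411-5p had the smallest p, and none of them passed the test. In each of them all 6 heat stressed libraries lay below the heat resistant median; they were chosen for small p, so this is a description. miR-2431-3p had 3.66 to 6.80 CPM in heat stressed libraries, against 6.32 to 10.6 CPM in heat resistant libraries (log2 fold change -0.68 ± 0.24 SE; adjusted p 0.151 by edgeR). miR-2478 had 15.1 to 34.3 CPM in heat stressed libraries, against 24.8 to 57.5 CPM in heat resistant libraries (-0.63 ± 0.25 SE; adjusted p 0.175 by edgeR). miR-2474, from a hairpin inside the adaptor protein gene SHB, had 4.48 to 9.32 CPM in heat stressed libraries, against 7.27 to 15.9 CPM in heat resistant libraries (-0.57 ± 0.24 SE; adjusted p 0.213 by edgeR). miR-2411-5p, from a hairpin inside the ubiquitin-associated gene UBAP2L, had 1.09 to 5.13 CPM in heat stressed libraries, against 3.63 to 11.1 CPM in heat resistant libraries (-0.83 ± 0.35 SE; adjusted p 0.213 by edgeR).

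Block miR-2880 to miR-2903 had 3 names, of which miR-2903 had too few counts to be tested. The other 2 are both arms of 1 hairpin, mir-2887-1. The p5 product had 3.66 to 22.7 CPM in heat stressed libraries, with a median of 9.70 CPM, and 11.7 to 50.3 CPM in heat resistant libraries, with a median of 17.7 CPM (log2 fold change -1.25 ± 0.46 SE; adjusted p 0.162 by edgeR). Its highest values, 45.2 and 50.3 CPM, were those of heat resistant libraries 1 and 2, the libraries rich in the hepatocyte miRNAs. Without these libraries the log2 fold change was -0.47 ± 0.42 (SE; adjusted p 0.681 by edgeR), and the part of liver RNA in the value was not tested. The p3 product had 12.0 to 17.2 CPM in heat stressed libraries, against 14.8 to 35.0 CPM in heat resistant libraries (-0.44 ± 0.21 SE; adjusted p 0.250 by edgeR). It was high in heat resistant library 1 at 35.0 CPM and not in library 2, which had 14.8 CPM, the lowest of its group. Without heat resistant library 1 its log2 fold change was -0.23 ± 0.17 SE (adjusted p 0.536 by edgeR).

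**Figure D2:**
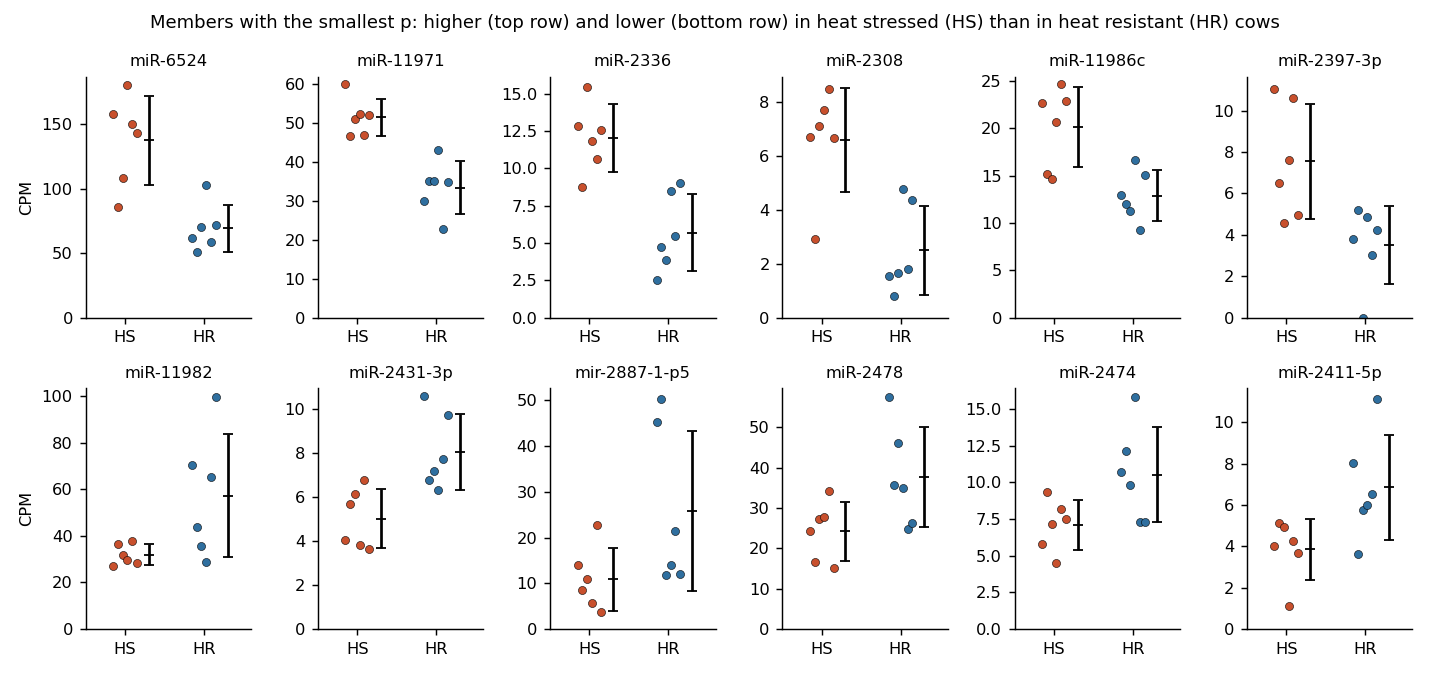
CPM of the 12 members with the smallest p, 6 with higher values (top) and 6 with lower values (bottom) in heat stressed (HS) than in heat resistant (HR) cows; points are libraries and bars are mean ± SD (n = 6 each). Groups are apart for miR-11971, with 46.6 CPM as the lowest heat stressed and 42.9 CPM as the highest heat resistant value, and overlap in the others.

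Of the 167 members 75 had enough counts to be tested, and edgeR called 0 of them at an adjusted p under 0.05, as it called 0% of all 756 features. An unadjusted p under 0.05 was reached by 15 members, 7 of them higher in heat stressed cows (9.13% of all tested features were) and 8 lower (10.2% of all). These 15 make 20% of the members tested, next to 19.3% of all tested features, so their frequency was near the background. DESeq2 called 6 members, or 8%, beside 7.14% of all features, and limma-voom called 0. The DESeq2 calls were miR-6524, miR-11971, miR-2336, miR-2308 and miR-11986c with higher values and miR-11982 with lower values. edgeR called miR-6524, and no other member, with no filter on low counts, where 0.556% of all features were called, with 1 CPM or more in 6 libraries (2.01%) and with repeat rows summed (1.68%).

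Leaving out single libraries changed the count of calls. Without heat resistant library 4, edgeR called 8 of 77 members, or 10.4%, when it called 12.5% of all features: the 6 named by DESeq2, miR-6525 with higher values and miR-11973 with lower values. With heat stressed library 2 left out, 5 of 79 members passed, or 6.33%, beside 3.74% of all features, and these were the 5 with higher values under DESeq2. That library held the lowest heat stressed value of miR-6524, miR-2336 and miR-2308, so leaving it out widens these differences by construction. When any other single library was left out, no member passed, beside at most 0.257% of all features. Heat resistant library 4 was the one rich in red cell miRNAs and held the highest heat resistant value of miR-6524, miR-11971, miR-2308 and miR-11986c and the lowest of miR-11982 and miR-11973, so leaving it out widens these differences by construction. The part of red cell RNA in these values was not tested.

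Of the tested members 31 had higher values in heat stressed cows and 44 had lower values, where 49.7% and 50.3% of all tested features did. Block miR-2286 to miR-2484 had 14 members with higher and 29 with lower values, a median log2 fold change of -0.15. Block miR-11970 to miR-12065 had 10 higher and 11 lower, with a median of -0.11. Block miR-6517 to miR-6536 had 7 higher and 2 lower, with a median of 0.05, and both tested names of block miR-2880 to miR-2903 had lower values. Over all 756 features 376 had higher and 380 lower values, with a median of -0.00, and the interquartile range ran from -0.34 to 0.32. Of the miR-2284 and miR-2285 names 58 of 75 tested had higher values, with a median of 0.28; whether this set and the members differ was not tested. As a share of counts, block miR-6517 to miR-6536 made up 0.171 ± 0.0156% in heat stressed cows, against 0.162 ± 0.0279% in heat resistant cows (SD, n = 6 each). For block miR-2286 to miR-2484 the heat stressed share was 0.0611 ± 0.00521% and the heat resistant share 0.0679 ± 0.00916%. For block miR-11970 to miR-12065 the heat stressed share was 0.0266 ± 0.00273% and the heat resistant share 0.0286 ± 0.00659%, and for block miR-2880 to miR-2903 they were 0.00267 ± 0.000820% and 0.00464 ± 0.00185%. The ranges of the groups overlapped in all 4 blocks.

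**Figure D3:**
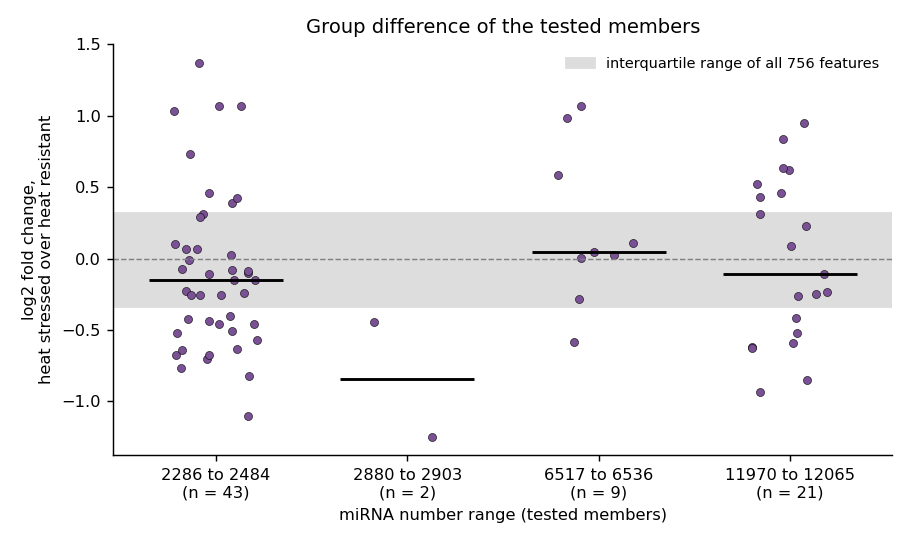
Log2 fold change of heat stressed over heat resistant cows for the 75 tested members by number block; points are members, black bars are block medians, and the grey band is the interquartile range of all 756 tested features. Block medians of -0.15, 0.05 and -0.11 lie inside the band, and that of the 2 names of block miR-2880 to miR-2903 lies below it.

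Spread among libraries of a group was somewhat larger in the members than in the table. The median coefficient of variation was 33.0% for heat stressed cows, against 41.6% for heat resistant cows, over the 75 tested members, beside 28.1% and 31.7% over all tested features. The median level, tested or not, was 0.975 CPM over members, 0.563 CPM over all names and 30.7 CPM over the other cattle names. The part of level in the spread was not tested. Heat resistant library 6 had the highest value of the 12 libraries in 18 tested members, or 24.0%, while it was the highest in 12.8% of all features tested. It had the largest share of counts in 3 of the 4 blocks, with 0.0850% in block miR-2286 to miR-2484, 0.209% in block miR-6517 to miR-6536 and 0.0408% in block miR-11970 to miR-12065. Its total of 6839365 counts lay inside the range of the other libraries. miR-2453, from a hairpin inside the gene of the transcription adaptor TADA2B, had the largest ratio of the highest to the median library among the tested members, 6.53. It had 15.8 CPM in heat resistant library 6, against 1.98 to 7.60 CPM in heat stressed libraries and 0 to 5.37 CPM in the other heat resistant ones.

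Both arms of a hairpin were in the table for 36 of the 131 hairpins, and one arm was usually well ahead. The median ratio of the more to the less abundant product was 5.06, with 14 hairpins above 10 and 6 below 2. The more abundant product was ahead in every library with counts of either in 21 hairpins. Its lead was widest in mir-6517, at 70.2 against 0.0796 CPM, mir-2346, at 17.7 against 0.0631 CPM, and mir-2415, at 21.1 against 0.115 CPM. In mir-2887-1 the arms were even, at 18.3 and 18.1 CPM, and p5 led in 5 libraries and p3 in 7. Where both products were tested, in 10 hairpins, their fold changes had the same sign in 8. The exceptions were mir-2320, at -0.01 and 0.31, and mir-2448, at 0.29 and -0.08 (log2). Hairpins in this paragraph were named after their values were seen.

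**Figure D4:**
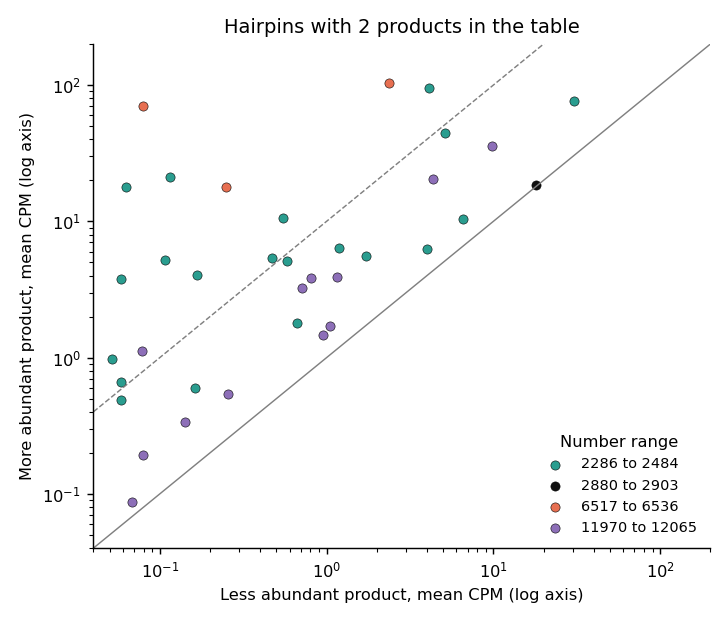
Mean CPM of the more abundant product against the less abundant product of 36 hairpins, on log axes, coloured by number block; the solid line marks equal levels and the dashed line a ratio of 10. mir-6517 lies farthest from the solid line (70.2 against 0.0796 CPM) and mir-2887-1 on it.

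The hairpin mir-2419 was uneven across libraries, which are grouped here by their p3 level after the values were seen. Its p3 product, whose deposited name marks an A-to-G change from the listed hairpin, stood at 67.6 and 76.4 CPM in heat stressed libraries 1 and 6 and at 6.76 to 10.2 CPM in the other 4. In heat resistant libraries 1, 2 and 6 it stood at 44.4, 48.7 and 54.0 CPM, and in the other 3 at 20.8, 9.01 and 11.5 CPM. The 5p product ranged from 74.8 to 117 CPM in the 5 libraries with p3 at 44.4 CPM or more and from 42.4 to 119 CPM in the other 7. The ratio of 5p to p3 was 0.979 to 2.30 in those 5 libraries and 4.5 to 9.0 in the other 7. Libraries were sorted on p3, so this gap in ratio is a description. The p3 product had no difference between the groups beyond its spread (log2 fold change -0.08 ± 0.67 SE; adjusted p 0.964 by edgeR).

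The hairpin mir-11979, chosen after its values were seen, was present in 2 libraries alone, 1 of each group. Heat stressed library 5 had 196 counts of miR-11979 and 68 counts of its p5 product, and heat resistant library 6 had 134 and 30 counts. Both were listed at 0 in the other 10 libraries. At 27.8 and 18.9 CPM, miR-11979 would rank among the more abundant members in these libraries.

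**Figure D5:**
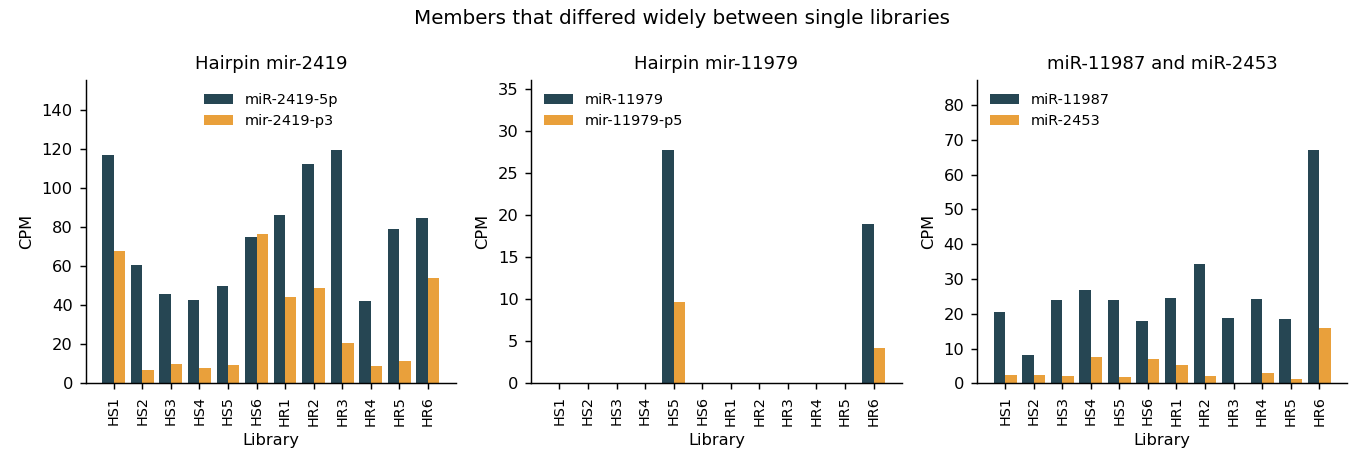
CPM per library of the 2 products of mir-2419 (left) and of mir-11979 (middle), and of miR-11987 and miR-2453 (right), with heat stressed libraries HS1 to HS6 before heat resistant libraries HR1 to HR6. The p3 product of mir-2419 is above 44 CPM in 5 libraries and under 21 CPM in 7, mir-11979 appears in HS5 and HR6 alone, and HR6 is the highest library of miR-11987 and miR-2453.

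Among the members, miR-2299-5p had in 3 or more libraries the same count, of at least 20, as a form of miR-188, and miR-6535 the same as a product of mir-10161, and whether they hold the same reads was not tested. miR-6536 stands on 2 rows with equal values and was counted once, while summing both rows is among the alternatives; its hairpin has 2 genes, next to each other inside REV3L, the gene of a DNA polymerase subunit. This member, named after its values were seen, averaged 1.12 CPM in heat stressed cows, against 0.488 CPM in heat resistant cows. Its mean over all libraries was 0.804 CPM, and values this low rest on a few counts.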

How the data were processed

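Small RNA libraries of 12 blood samples were made with a TruSeq kit and their raw reads filtered with ACGT101-miR, per the labels' protocols, to remove adapter dimers, junk, low complexity reads, common RNA families and repeats. Only 9 libraries are mentioned in those protocols, but 12 are deposited and all were used. No source used here names the aligner, miRBase release or genome build. The deposited raw columns hold expected counts (80.2% of values above 0 whole within 1e-06), with 2183 rows for 1981 names; repeat rows with the same name and values were counted once. The deposited normalized columns, a signal, are 1 factor per library (0.693 to 1.70) times the raw values and were not used in any test.

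Counts were rounded to whole numbers and fitted over the whole table with edgeR 4.0.16 in R 4.3.3 (filterByExpr, minimum count 10; TMM; quasi-likelihood F test, robust), with Benjamini-Hochberg adjustment over 756 features at 0.05, 2-sided. SE is the log2 fold change over the root of F. DESeq2 1.42.0, limma-voom (limma 3.58.1), other scalings and filters and leaving out libraries were alternatives. The test was run on simulated data first. Members, lists and tests were chosen with earlier results of these data known, so no summed score over members carries a p. The 24 members chosen for full values are the 4 most abundant of each block, the 6 with the smallest p in each direction and the 3 tested members with the largest ratio of highest to median library; others are said to be named after their values were seen. The labels do not say that each library is a separate cow, so p-values measure the spread between these samples. The 12 normalized columns were the values left unused.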

Additional observations from a re-analysis of the deposited data

Results flagged for a closer look

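In 64 sets of 6 libraries checked, 7 held a library far from the other 5 of its group, where chance alone flags about 1 in 20 sets of members not picked for it; 3 of the members, among them miR-2453, were picked for a high library, so that rate does not apply to them. CPM of miR-6523a was 78.8 in heat stressed library 5 (others 52.4 to 55.8), that of miR-2308 was 2.91 in heat stressed library 2 (others 6.68 to 8.50) and that of miR-2411-5p was 1.09 in heat stressed library 4 (others 3.66 to 5.13). In heat resistant library 6, miR-11987 stood at 67.1 CPM (others 18.6 to 34.4) and miR-2453 at 15.8 CPM (others 0 to 5.37). The p3 product of mir-2887-1 stood at 35.0 CPM in heat resistant library 1 (others 14.8 to 20.4). Heat resistant library 4 had counts for 3 names of block miR-2880 to miR-2903, against 2 in each of the others of its group. This is a whole number of at most 3 with the others tied, so that rate does not apply to it either. Heat stressed libraries had 2 to 3.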

How the results depend on the processing

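The counts of members with higher and lower values at an adjusted p under 0.05, 0 and 0 in the edgeR fit given above, were 5 and 1 with DESeq2. They were 1 and 0 without a filter on low counts, with 1 CPM or more in 6 libraries, and with repeat rows summed, miR-6524 each time. Leaving out 1 library at a time gave 0 to 6 and 0 to 2; without heat resistant library 4 they were 6 and 2, and without heat stressed library 2 they were 5 and 0. Without heat resistant libraries 1 and 2 together they were 0 and 0. With the replicate number as a block they were 1 and 0, again miR-6524. This is 1.33% of the members tested, beside 1.06% of all features. Same-numbered libraries correlated at -0.053 to 0.28 in their deviations, and 5 of 12 correlated best with their own number. These values do not settle whether the numbers are pairs. The labels give no pairing, so the numbers were not taken as pairs. The median log2 fold change of block miR-6517 to miR-6536, 0.05, was 0.63 without a filter, when all 17 names entered. That of block miR-11970 to miR-12065, -0.11, was -0.25 to 0.10 when 1 library was left out, with -0.25 without heat resistant library 3. The difference in names with counts of block miR-2880 to miR-2903, 0.5, was 0 at 10 or more counts. Members with fold changes near 0 crossed 0 on the log2 scale. With cattle names only, miR-6529a was -0.051, miR-6517 was -0.029 and miR-6523a was -0.072; without heat resistant libraries 1 and 2 together, an alternative chosen after seeing the data, miR-6529a was -0.060, miR-6523a was -0.084 and the p3 product of mir-2419 was 0.31. miR-6523a, 0.00 above, was -0.017 with DESeq2 size factors and with library totals, -0.022 with repeat rows summed, -0.018 in DESeq2 and -0.015 with 1 CPM or more in 6 libraries. miR-2453 was 0.31 with the replicate block and 0.18 in limma-voom. Leaving out 1 library gave -0.19 to 0.043 for miR-2403, -0.036 to 0.067 for miR-6529a, -0.039 to 0.16 for miR-6517, -0.073 to 0.067 for miR-6523a, -0.57 to 0.64 for miR-2453 (0.64 without heat resistant library 6) and -0.70 to 0.14 for the p3 product of mir-2419. The cause was not tested for any of these. Of the other values 238 that answer a comparison and 474 of single members kept their direction and their side of the threshold, and 22 of single members passed it in an alternative alone. Values under about 1 CPM rest on a few counts.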
